A study of Rattus norvegicus with 12 samples.

Results

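The mock 8 h cells are the baseline of a study in OLN cells, a rat oligodendroglial cell line: cells that received an empty vector and were harvested 8 h after transfection. They were chosen by their titles and comprise 2 of the 12 Affymetrix rat arrays of the series, 1 array from experiment 1 and 1 from experiment 2. They are described here by level and not as a contrast. All groups of the series share 1 background: the line carries a stable alpha-synuclein transgene, and FuGENE-6 served as the transfection reagent. The mock groups (8, 12 and 16 h) received the empty vector, and the p25_8h, p25_12h and p25_16h groups received p25alpha in pcDNA3.1, with 2 arrays in each of the 6 groups. The labels do not say whether the line is 1 clone, which promoter drives the transgene or whether the 2 experiments started from separately grown cultures, so the spread between the arrays may be partly technical.

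Oligodendrocytes are the myelin-forming glia of the central nervous system. In the brain they arise from precursors that divide under platelet-derived growth factor and carry the NG2 proteoglycan, and they are specified by the transcription factors Olig2, Olig1, Sox10 and Nkx2-2. On leaving the cell cycle they pass through a premyelinating stage marked by Bcas1 and then switch on the genes of compact myelin, among them Mbp, Mog and Mobp, and the lipid synthesis that myelin needs.

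Each array gives a MAS5 signal, a linear fluorescence intensity, and a detection call of present (P), marginal (M) or absent (A) for every probe set, a group of probes for 1 transcript. Of 31039 probe sets, 15142 (48.8%) were called P on both mock 8 h arrays, 12601 (40.6%) were called A on both, and 3296 (10.6%) had other calls. Over the 13020 genes with 1 symbol, 7722 (59.3%) had at least 1 probe set P on both arrays, and these are called present below. A further 4154 (31.9%) had every probe set A on both arrays and are called absent. The remaining 1144 genes (8.79%) are called mixed. Over all 13020 genes the brightest probe set had a median signal of 71.9, and the list medians below are of the same kind. Counts of present members in the lists below are to be read against the 59.3%. A list near that share is no richer in present genes than the rest. All signals below are those of experiment 1 and experiment 2, in that order, for the gene's brightest probe set unless another is named. With 2 arrays there is no test of a level, and an absent call says only that the signal could not be told from the array's mismatch probes, since broadly expressed genes such as Ogdh (10.7 and 1.7), a subunit of the 2-oxoglutarate dehydrogenase complex, were also called absent.

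The median signal was 163 for present probe sets, 17.5 for those with other calls and 4.81 for absent ones. Present probe sets held 97.3% of the summed signal, and the 1000 brightest alone held 42.4%. Across probe sets the log2 signals of both arrays correlated at 0.952 among present probe sets and at 0.525 among absent ones (15142 and 12601 probe sets of the same 2 arrays, which are not independent points), so the order of absent genes carries little. The classes overlapped at their border. The dimmest named gene called P on both arrays, RGD1562938, gave 7.4 and 5.4, and the brightest called A on both, Usp30, gave 166.8 and 176.5. Calls were kept at later times on arrays that had no part in choosing the genes. Of the present probe sets 13880 (91.7%) were also P on all 4 mock arrays of 12 and 16 h and 30 were A on all 4. Of the absent probe sets 10624 (84.3%) stayed A on all 4, and 24 were P on all 4.

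**Figure D1:**
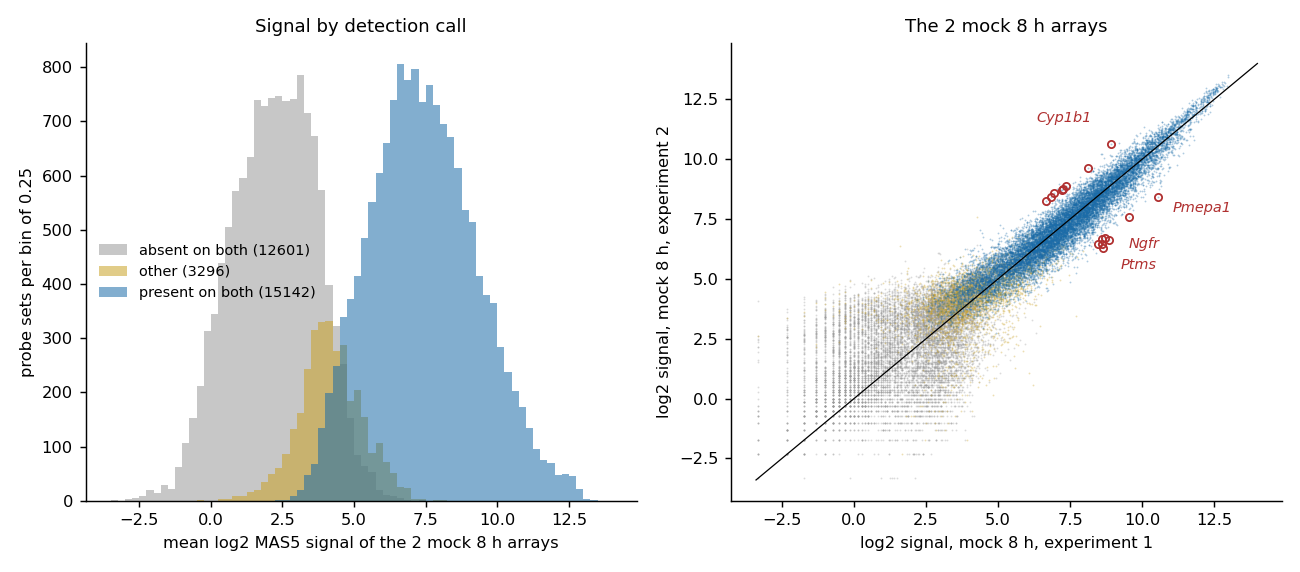
Left, number of probe sets by mean log2 MAS5 signal of the 2 mock 8 h arrays, split by detection call. Right, log2 signal of every probe set in experiment 1 (horizontal) and experiment 2 (vertical) with the same colours, the line of equal signal, and red circles for the 16 named probe sets that differed most between the arrays. Present probe sets (median signal 163) lie to the right of absent ones (median 4.81) with an overlap near the border, and absent probe sets scatter widely.

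Of the 5 oligodendroglial markers, 4 were present and Mbp was not. Sox10, the factor that maintains oligodendroglial identity and drives myelin genes, gave 684.5 and 418.5. Nkx2-2, a homeodomain factor of the precursor, gave 173.0 and 168.8. Olig1, a basic helix-loop-helix factor, was dim at 36.6 and 52.7, with P calls on both arrays. These 3 factors were also called P on all 4 later mock arrays. Bcas1 gave 277.1 and 330.1 on the probe set that was present, while its second probe set was called A on both arrays (15.6 and 25.9). Mbp, the myelin basic protein gene, has 4 probe sets, of which 3 were A on both arrays and 1 was P in experiment 1 only. Its brightest probe set gave 18 and 24.2 with absent calls and was A on all 4 later mock arrays. The probe set with the single P call (8.2 and 17.1) was P on 3 of the 4 later mock arrays, and another was P on 2 of 4. The arrays thus held present calls for Sox10, Nkx2-2, Olig1 and Bcas1, without a present call on both arrays for Mbp. Calls of 5 markers do not by themselves settle the identity of the cells.

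The list of oligodendroglial transcription factors held 11 measured genes, with 6 present, 4 absent and 1 mixed. This share (54.5%) lies close to the 59.3% of all named genes, and the median signal of the list was 43.9. Id4, an inhibitor of differentiation that holds precursors in an immature state, was the brightest of the list at 721.5 and 963.0, and all 4 of its probe sets were present. Sox6, which keeps precursors from differentiating, gave 155.0 and 101.4 on 1 probe set and an absent call on the other. Id2, a second inhibitor of differentiation, gave 36.8 and 52.4. Olig2, the factor that specifies the lineage, was absent on both of its probe sets and on all 4 later mock arrays, with signals of 0.8 and 8.6 on the brighter. Nkx6-2 (2.0 and 4.4), a homeodomain factor of mature oligodendrocytes, was absent too. Hes5, a Notch target, gave 6.9 and 14.4 with absent calls, and Yy1 was absent on 3 probe sets. The arrays thus held Sox10, Nkx2-2 and Olig1 without Olig2.

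Precursor genes included bright members and absent ones. Pdgfra, the platelet-derived growth factor receptor that marks the precursor, gave 1181.6 and 1786.4, which placed it at rank 922 of all probe sets. Vcan, the matrix proteoglycan versican, gave 743.7 and 1213.5. Ptprz1, a receptor phosphatase of glial precursors, gave 346.9 and 553.3. Cspg4, which encodes the NG2 proteoglycan, gave 198.1 and 170.4, and a second probe set was absent. These 4 were the present ones of 11 measured (36.4%, below the 59.3% of all named genes), and all were P on every later mock array. The median signal of the list was 11.2, against 71.9 over all genes. The 5 absent members were Tnr (8.5 and 14.7), the tenascin of perineuronal matrix, Ncan (10.4 and 1.7), the proteoglycan neurocan, Cspg5, Lhfpl3 and Fabp7, and none of them reached a signal of 15. Cacng4 and S100a1 were mixed.

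Among 26 measured premyelinating and myelin genes 9 were present (34.6%), 13 absent and 4 mixed, with a median signal of 8.58. Cryab, a small heat shock protein found in oligodendrocytes, was the brightest at 4901.2 and 4761.3 and ranked 124 of all probe sets. Cnp, the phosphodiesterase that appears early in the oligodendrocyte and lies in non-compact myelin, followed at 1804.0 and 1182.4. Gsn (628.9 and 591.4), an actin-severing protein, and Qdpr (710.1 and 518.6), which recycles tetrahydrobiopterin, are expressed in many other cells too. Nfasc, whose product anchors axon and glial membranes at the node, gave 291.1 and 300.6 on 1 of 3 probe sets. Other myelin genes were dim or absent. Mog, a surface glycoprotein of the outermost myelin lamella, was P on 1 of 3 probe sets at 51.2 and 33.4. Mag, which lies on the innermost membrane next to the axon, was P at 11.6 and 25.8, close to the border of detection. Both stayed P on the 4 later mock arrays. Absent members were Mobp (4.5 and 13.8), Mal, Opalin, Ermn, Tf, Aspa, Car2, Gjb1, Cntn2, Enpp2, Gpr37 and Tspan2, which include structural proteins, a connexin of oligodendrocytes and the transferrin that they secrete. Cldn11, the claudin of myelin tight junctions, and Ugt8, the enzyme for galactocerebroside, were mixed.

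**Figure D2:**
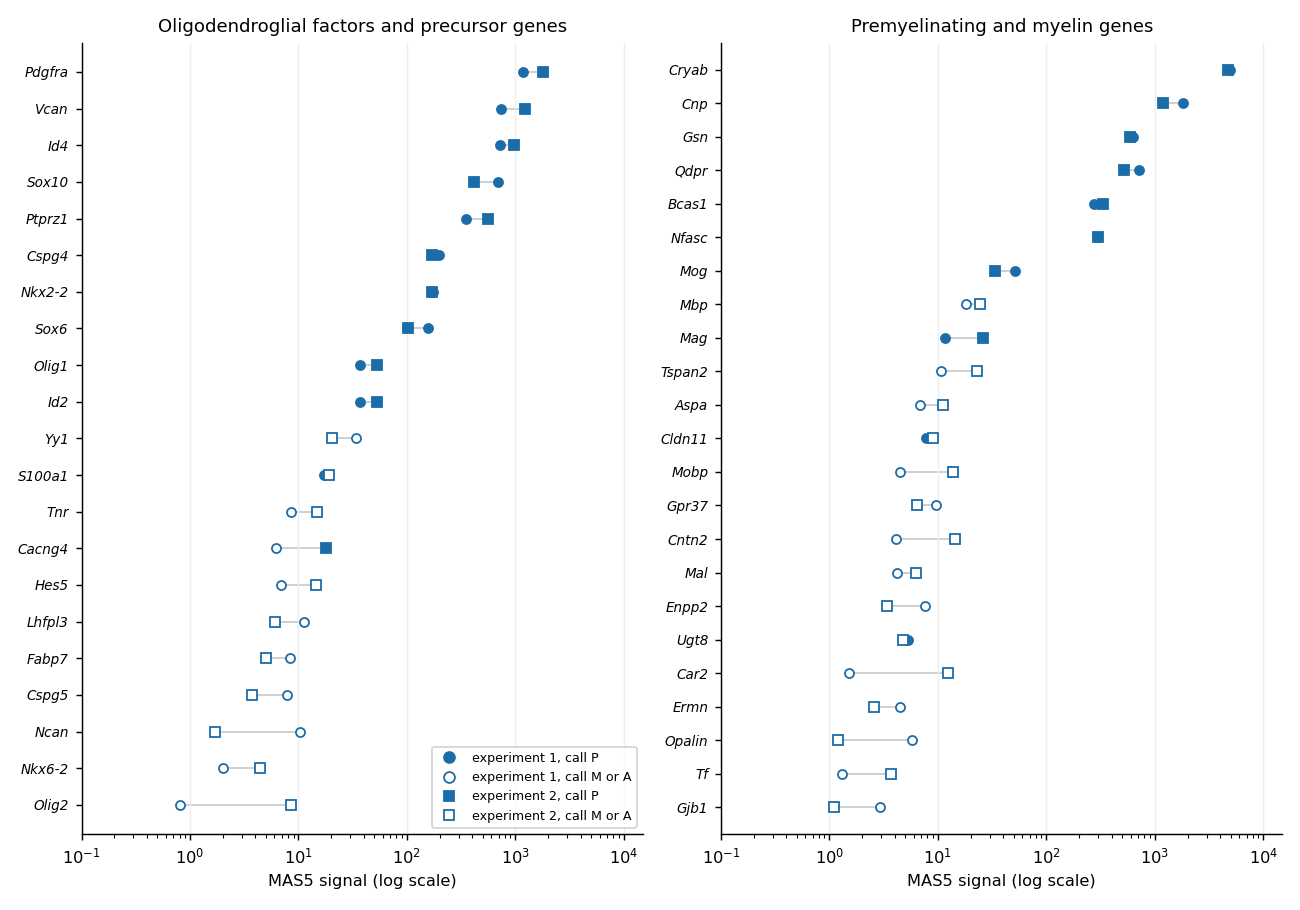
MAS5 signal (log scale) of the brightest probe set of the genes described in the text on the mock 8 h arrays of experiment 1 (circles) and experiment 2 (squares), filled where the call was P, for transcription factors with precursor genes (left) and premyelinating with myelin genes (right). Pdgfra, Vcan, Id4 and Sox10 stand above a signal of 400, while Olig2, Opalin, Tf and Gjb1 lie below 10 with open symbols.

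Present and absent genes differed in the base composition around their start sites, a property that the calls did not use. A RefSeq promoter of 300 bases, 250 before and 50 after the start, was matched by symbol for 9812 genes. The median number of CpG dinucleotides was 22 in 6120 present genes (quartiles 15 and 29) and 10 in 2859 absent genes (quartiles 4 and 22), and more than 10 CpGs were found in 85.9% and 47.7% of them, in 73.1% of the 9812 genes with a probe set and in 41.7% of all promoters of the table. The letters TATAAA occurred on either strand in 6.29% of present and 12.8% of absent genes, in 8.40% of the 9812 genes and in 14.3% of all 27457 promoters. CCAAT, also on either strand, occurred in 38.9% and 34.6%, in 37.4% of the 9812 genes and in 37.7% of all promoters. Oligodendroglial genes fell on both sides of this difference. The 4 windows below show a present transcription factor and a present premyelinating gene beside a pair of absent myelin genes. They are given 5′ to 3′ along the gene in GRCr8 with each CpG in capitals. Nkx2-2 (chr3:155075573-155075872, minus strand) has 23 CpGs and Cnp (chr10:86011254-86011553, plus strand) has 24. Mobp (chr8:128746982-128747281, plus strand) has 4 and Opalin (chr1:249858141-249858440, minus strand) has 3.
Nkx2-2: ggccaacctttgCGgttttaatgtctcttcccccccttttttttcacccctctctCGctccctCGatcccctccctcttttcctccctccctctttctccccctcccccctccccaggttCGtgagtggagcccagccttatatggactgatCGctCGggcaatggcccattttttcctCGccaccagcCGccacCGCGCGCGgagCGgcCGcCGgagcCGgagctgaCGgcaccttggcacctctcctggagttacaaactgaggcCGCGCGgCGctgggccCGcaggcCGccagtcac
Cnp: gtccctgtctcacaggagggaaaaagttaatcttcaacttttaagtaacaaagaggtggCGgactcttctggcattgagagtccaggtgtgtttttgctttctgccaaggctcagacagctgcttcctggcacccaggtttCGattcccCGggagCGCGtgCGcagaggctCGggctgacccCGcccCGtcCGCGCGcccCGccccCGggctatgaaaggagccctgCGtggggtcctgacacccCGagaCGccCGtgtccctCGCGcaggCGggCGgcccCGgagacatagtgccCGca
Mobp: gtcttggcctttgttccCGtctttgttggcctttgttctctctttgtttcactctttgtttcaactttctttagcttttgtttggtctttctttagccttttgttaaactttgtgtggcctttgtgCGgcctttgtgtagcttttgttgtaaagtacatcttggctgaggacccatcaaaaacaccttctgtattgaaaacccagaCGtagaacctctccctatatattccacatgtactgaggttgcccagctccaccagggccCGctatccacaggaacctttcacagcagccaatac
Opalin: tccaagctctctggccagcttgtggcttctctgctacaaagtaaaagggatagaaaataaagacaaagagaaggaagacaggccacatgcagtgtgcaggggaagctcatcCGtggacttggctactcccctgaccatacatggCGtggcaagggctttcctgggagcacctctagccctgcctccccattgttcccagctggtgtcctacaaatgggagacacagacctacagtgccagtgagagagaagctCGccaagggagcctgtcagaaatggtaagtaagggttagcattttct

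The split by call did not hold gene by gene. The window of Pdgfra, among the brighter precursor genes, has 5 CpGs, and that of Olig2, absent on both probe sets, has 16. Among myelin genes not printed above, the absent Tspan2 has 34 and the absent Gpr37 has 21, while the present Mag has 6. With the present genes split by signal into 4 sets of 1530, the dimmest set had a median of 20 CpGs and the brightest had 23. The match of these letters describes the windows and says nothing of which factors bind there.

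**Figure D3:**
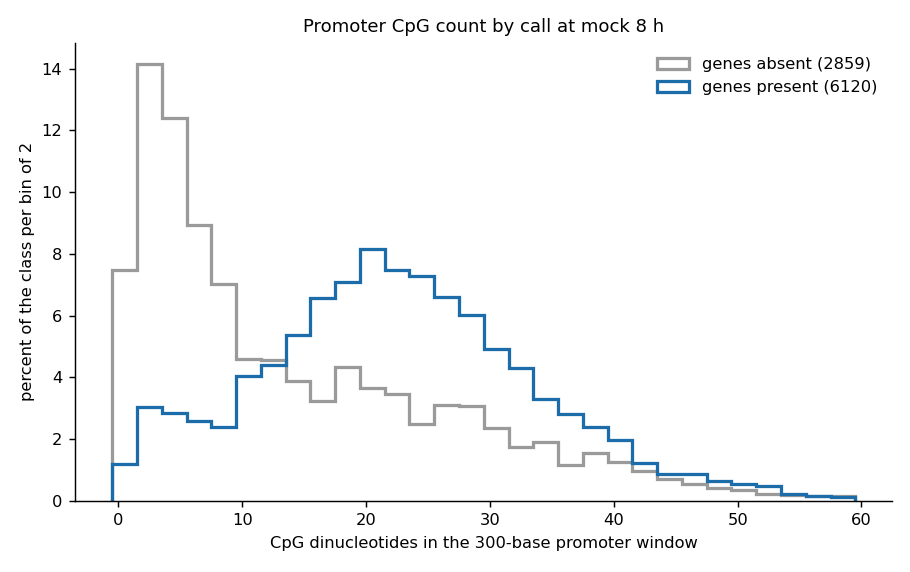
Percent of genes in each class (vertical) by the number of CpG dinucleotides in the 300-base window around the start (horizontal, bins of 2), for 6120 genes present and 2859 genes absent on the mock 8 h arrays. The absent genes peak at few CpGs (median 10) and the present genes at many (median 22), with wide overlap.

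Genes of other neural cell types were read from lists of the same kind. Neural stem and radial glia genes were present for 7 of 9 measured, with a median signal of 76.0. Vim, the intermediate filament of immature glia, gave 7082.1 and 7875.2 and ranked 15 of all probe sets. Sox2, the stem cell factor, gave 908.0 and 1647.7 with 4 of 5 probe sets present. Nes, the intermediate filament nestin, gave 770.9 and 443.2. Gli3, a transcription factor of Hedgehog signalling, followed at 197.9 and 270.7, and Prom1, Hes1 and Notch1 were present at low signal. Pax6 was mixed and Fut4 absent.

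Astrocyte genes were present for 9 of 16 (56.25%, close to the 59.3% of all named genes), with a median signal of 51.5. S100b, a calcium-binding protein that both astrocytes and oligodendroglia express, was the brightest at 2834.3 and 1850.4. Clu (410.0 and 273.8), a secreted chaperone, and Fgfr3 (380.6 and 479.4), a growth factor receptor, were present. Glul, which makes glutamine, was present on all 5 probe sets at 323.4 and 251.5. Gfap, the astrocyte filament, gave 123.8 and 54.4. The other astrocyte genes with P calls were dimmer than a signal of 200: Ndrg2, Gja1, Aldoc and Slc1a3. Aqp4, Slc1a2, Aldh1l1, Sox9, Ntsr2, Gjb6 and Slc4a4, which cover the water channel, the main glutamate transporter and a connexin of astrocytes, were absent on every probe set.

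Genes of Schwann cells and the neural crest were present for 7 of 12 (58.3%, close to the 59.3% of all named genes). The median signal of the list was 167. Pmp22, a peripheral myelin protein with broader expression, ranked 140 at 3740.9 and 5409.8. Egr2, the factor that drives myelination in Schwann cells, gave 445.6 and 327.5 on 1 of 2 probe sets. Twist1 (212.9 and 252.0), a mesenchymal factor, and Tfap2a (151.1 and 153.2), a neural crest factor, were present. Ngfr, the low-affinity neurotrophin receptor, gave 392.8 and 101.1 and so differed by more than 2-fold between the arrays. Pou3f1, Pou3f2, Foxd3 and Gfra3 were absent, and Erbb3 was mixed (83.7 and 66.5).

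Of 19 measured neuronal genes 8 were present, 8 absent and 3 mixed, with a median signal of 22. Map2 (553.8 and 766.2), a microtubule protein of dendrites that immature oligodendroglia can also express, and Nefm (308.1 and 469.0), a neurofilament subunit, were the brightest. Th (108.4 and 150.7), Slc17a6 (101.2 and 142.2), Eno2, Gad1, Snap25 and Rbfox3 had P calls at lower signal. Absent on every probe set were Dcx, Nefh, Slc17a7, Tubb3, Nefl, Gap43, Gad2 and Mapt, so neuronal genes stood on both sides of the call.

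Lists for cell types outside the neural lineage had median signals between 2.54 (endothelial) and 15.1 (fibroblast, pericyte and smooth muscle). The oligodendrocyte precursor (11.2) and myelin (8.58) lists lay within this range, so a low median did not set these lists apart. Microglia and macrophage genes were present for 2 of 16, among them Cd14 (175.3 and 109.2), a co-receptor for lipopolysaccharide. Itgam (1.6 and 1.8), Ptprc (0.4 and 1.1), Aif1 and Cx3cr1 were absent, as were C1qa, C1qb, C1qc and Cd68. Among 8 endothelial genes Flt1 (31.9 and 27.1) was present on 1 of 5 probe sets, and Pecam1, Kdr, Vwf, Cldn5, Esam, Eng and Tie1 were absent. The list of other tissues held 18 measured genes, those of liver, muscle, pancreas and germ cells and the epithelial keratins Krt5 and Krt14. Its 1 present gene was Krt5 (8.3 and 16.8, on 1 of 3 probe sets), with 3 present on experiment 1 alone and 0 on all 6 mock arrays. In this list 15 genes were absent, among them Alb, Apoa1, Apob, Fgb, Cyp2e1, Hnf4a, Actn2 and Ckm. Genes of fibroblasts, pericytes and smooth muscle were present for 5 of 16. S100a4, a calcium-binding protein of motile cells, was the brightest at 6179.9 and 7598.1. Col1a1 (215.9 and 131.5), Postn (120.2 and 115.0), Acta2 and Pdgfrb were present at lower signal, whereas Col1a2, Lum, Dcn, Cnn1, Rgs5, Des and Thy1 were absent. In bulk RNA a small share of cells with high expression and low expression in all cells cannot be told apart.

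**Figure D4:**
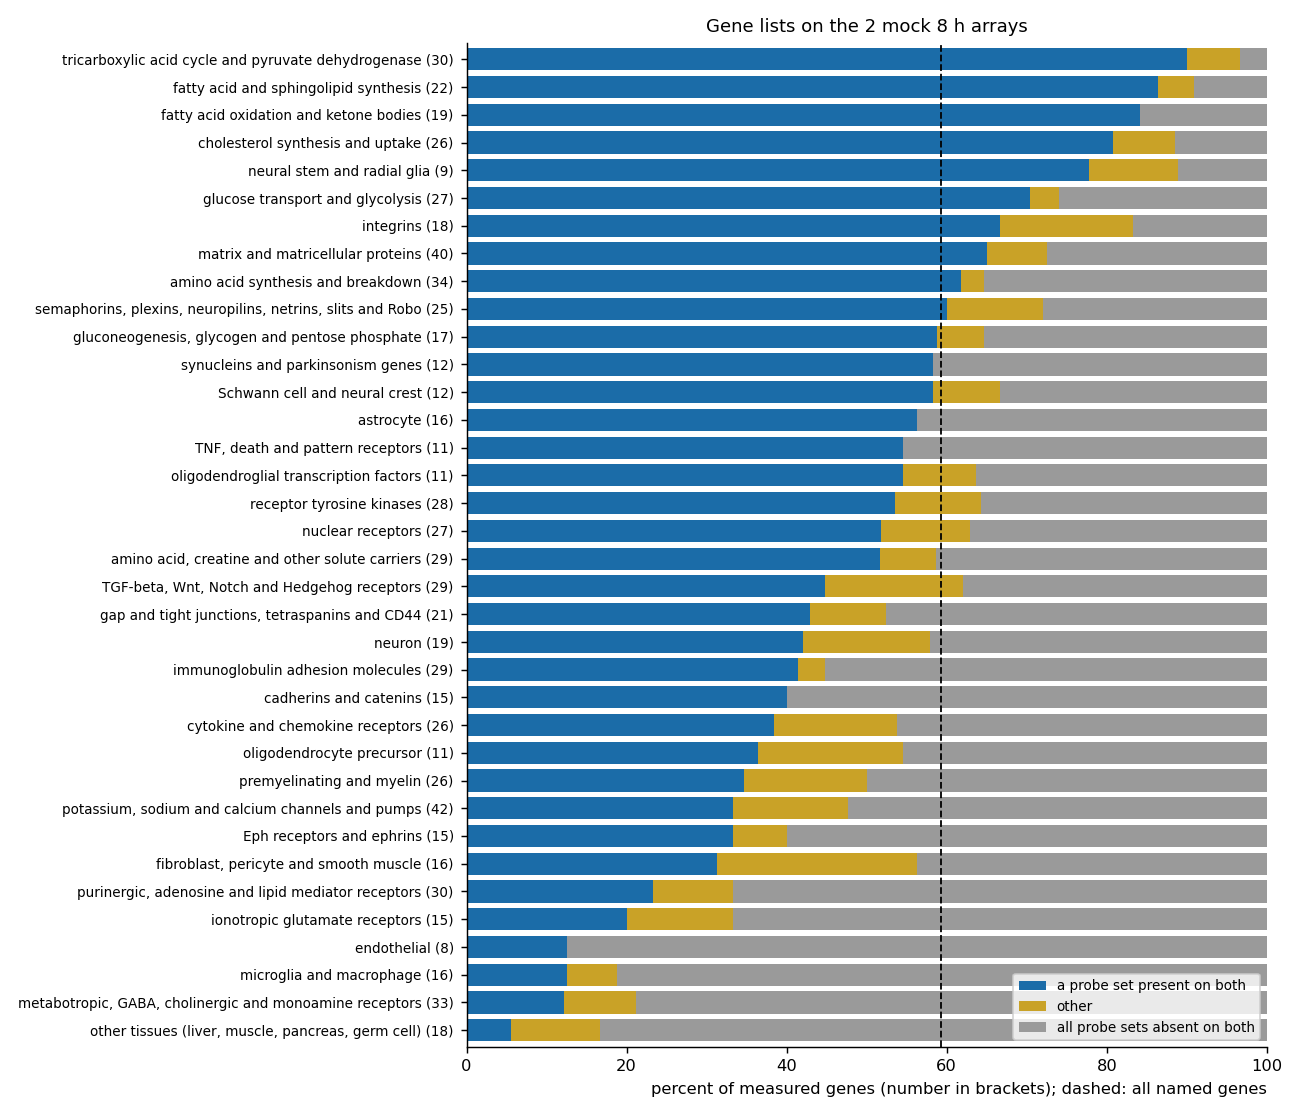
Percent of measured genes (horizontal) that were present (blue), mixed (yellow) or absent (grey) on the 2 mock 8 h arrays in each of the 36 gene lists, ordered by the share present, with the number of measured genes in brackets and a dashed line at the 59.3% of all named genes. The 4 lists of energy and lipid metabolism lie at the top, reaching 90.0% for the tricarboxylic acid cycle, and lists of neurotransmitter receptors and of non-neural cells lie at the bottom, down to 5.56%.

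Synuclein and parkinsonism genes were read because of the transgene that the line carries. Sncb (7.9 and 6.8) and Sncg (3.6 and 13.3), the beta and gamma synucleins, were absent. Tppp, which encodes p25alpha, is among the 95 of 837 listed genes with no probe set matched by symbol, so its baseline was not analysed here. Of 12 measured synuclein and parkinsonism genes 7 were present, with a median signal of 39.2. Vps35, a retromer subunit, gave 1643.8 and 1964.5. Park7, a redox-sensitive chaperone, gave 1287.1 and 1190.7. Uchl1, a ubiquitin hydrolase abundant in neurons, gave 1001.7 and 562.1. Fbxo7, Atp13a2 and Pink1 were present at lower signal, and Syn1 (2.3 and 9.9) and Mapt were absent.

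Ribosomal protein genes made up 18 of the 30 brightest genes and 57 of the 100 brightest. The brightest of the others was S100a10, the annexin A2 partner p11, at 7338.9 and 8621.9. Lgals1, the secreted lectin galectin-1, gave 6993.1 and 8331.6, and Txn1, the redox protein thioredoxin, gave 6404.3 and 9063.6. After Vim came Pabpc1, which binds poly(A) tails, at 6664.4 and 8324.4, and Cd63, a tetraspanin of late endosomes, at 6539.0 and 8419.0. The list went on with Fth1, Npm1, RGD1561181, S100a4, Tmsb4x, Ppia, Anxa2, Eef1a1 and MGC72957, the last described in the deposited annotation as similar to a 60S ribosomal protein. All of these were P on every later mock array. Probes bind with different strength, so these are ranks of signal and not of transcript number. Among the 100 brightest probe sets 12 had no symbol in the deposited annotation, including the brightest of all (8157.6 and 11768.0).

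Receptor tyrosine kinases, which receive growth factors, were present for 15 of 28 measured (53.6%, against 59.3% of all named genes) and absent for 10. The median signal of the list was 39.7. Axl, the receptor for Gas6, was the brightest at 2385.2 and 2943.9, followed by Pdgfra. Ddr2, a collagen receptor, gave 703.1 and 1013.0. Met, the receptor for hepatocyte growth factor, gave 576.8 and 760.9. Fgfr3 came next, and Ntrk2, the receptor for brain-derived neurotrophic factor, gave 446.8 and 381.3 on the brightest of 7 probe sets, of which 3 were present and 4 absent. Alk (201.3 and 283.8) and Igf1r (181.1 and 196.9), the receptor for insulin-like growth factor 1, were present as well. Other kinases were called absent. Egfr, the receptor for epidermal growth factor, gave 0.3 and 1.0, and Erbb4 gave 0.4 and 2.1, whereas Erbb2 was present at 115.6 and 104.6. In the fibroblast growth factor family Fgfr1 (182.4 and 84.3) and Fgfr3 were present, and Fgfr2 (4 probe sets) and Fgfr4 were absent. Kit, Ntrk3, Ret, Tyro3 and Kdr were also absent. Members of the epidermal and of the fibroblast growth factor receptor families thus had different calls.

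**Figure D5:**
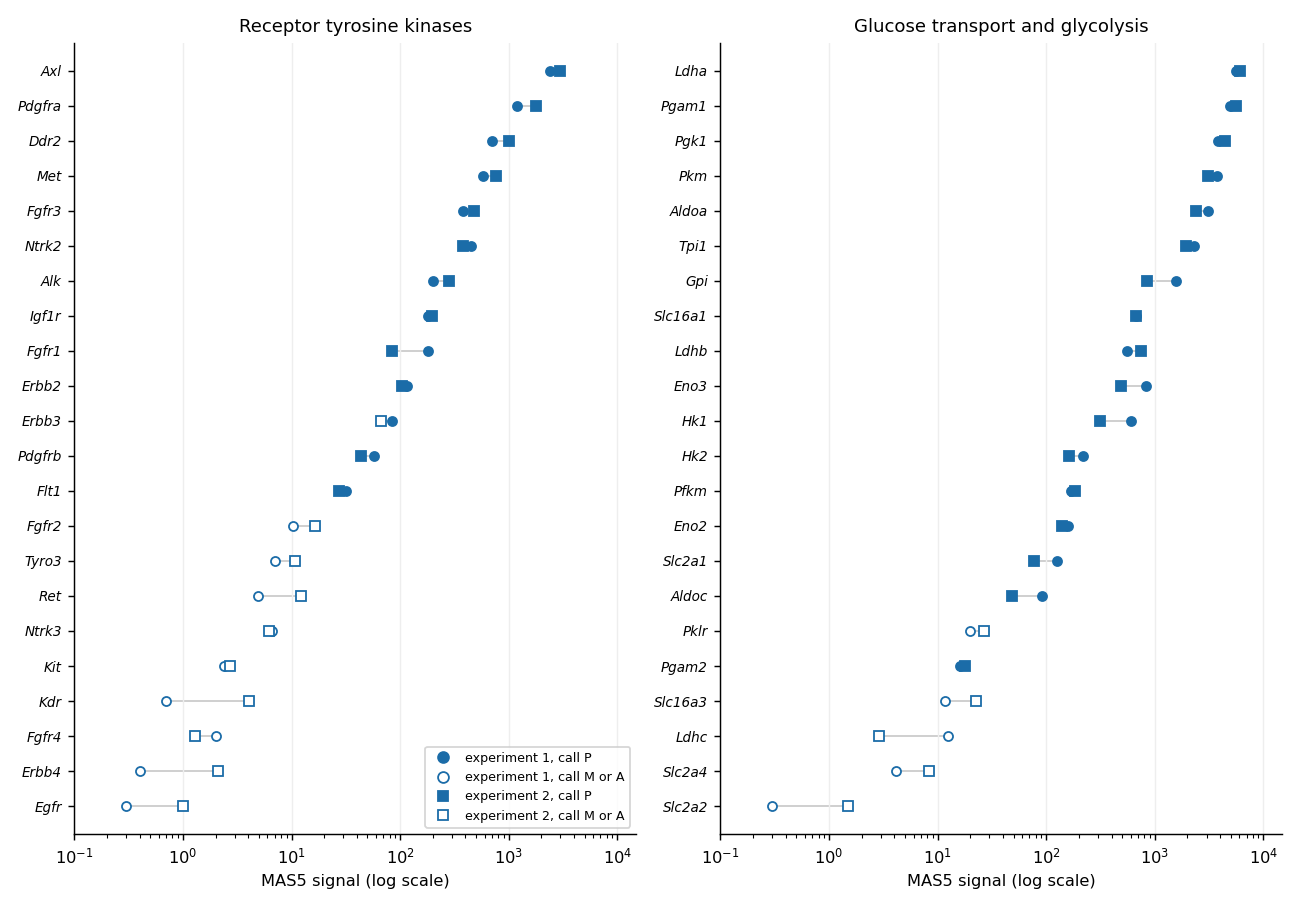
MAS5 signal (log scale) of the brightest probe set of the receptor tyrosine kinases (left) and the genes of glucose transport and glycolysis (right) described in the text on the mock 8 h arrays of experiment 1 (circles) and experiment 2 (squares), filled where the call was P. Axl and Pdgfra exceed 1000 and Egfr lies at or under 1.0, and Ldha, Pgam1 and Pgk1 stand at the top of the glycolytic genes while Slc2a2 and Ldhc are absent.

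Eph receptors and ephrins, which guide cells by contact, were present for 5 of 15, with a median signal of 10.2. Efnb1 (366.8 and 311.6) and Ephb3 (148.9 and 259.6) led, followed by Epha2, Ephb2 and Efna1, and Epha3, Epha4, Epha5, Epha7, Ephb1, Ephb6, Efna3 and Efna5 were among the absent members. Ligand-gated glutamate receptors were present for 3 of 15, with a median of 12.3, and 1 was present on all 6 mock arrays. Gria2, the AMPA receptor subunit that limits calcium entry, was P on all 5 probe sets at 356.9 and 684.7. Gria3 gave 100.9 and 110.8, and Grik5 was dim at 15.7 and 29.4. All measured NMDA receptor subunits lacked a present call on both arrays, with Grin1 at 19.4 and 19.7 and Grin2d mixed.

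Receptors for other transmitters were mostly absent. Of 33 metabotropic glutamate, GABA, acetylcholine and monoamine receptors 4 were present and 26 absent (78.8%, against 31.9% of all named genes). The median signal was 8.33. On experiment 1 alone 7 were present, and on all 6 mock arrays 2 were. Adrb1, the beta-1 adrenergic receptor, gave 100.7 and 209.6, and Gabbr1, a GABA-B receptor subunit, gave 70.3 and 103.3. Grm4 and Grm8 were P at signals under 30. Grm2, Grm3, Grm5 and Grm7, and Gabrb1 and Gabrb2 of the GABA-A receptors, were absent. Among 30 purinergic, adenosine and lipid mediator receptors 7 were present, with a median of 11.3. F2r, the thrombin receptor, was by far the brightest at 1340.2 and 1676.3. Lpar1, a lysophosphatidic acid receptor that oligodendrocytes express, gave 432.0 and 400.9, and Ednra, an endothelin receptor, gave 182.8 and 327.7 on 4 of 4 probe sets. S1pr2, P2rx4, P2rx3 and Adora2b were present at lower signal. P2rx1, P2rx2, P2rx7, P2ry1, P2ry2, P2ry6, P2ry12 and Adora1 were absent.

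Receptors for cytokines were present for 10 of 26, with a median of 11.2. Il6st, the shared gp130 subunit, gave 1312.8 and 1699.7 on the brightest of 4 present probe sets, and Ifngr1, a subunit of the interferon-gamma receptor, gave 591.9 and 499.2. Il1rap, Ifngr2, Il10rb, Ifnar1, Il17ra and Il6r gave P calls at signals between 53.1 and 325.3. Lifr (1.9 and 10.1), the leukaemia inhibitory factor receptor that pairs with gp130, was absent, and Cntfr was mixed. The chemokine receptors Cxcr1, Cxcr2, Cxcr4, Ccr1 and Ccr2 were absent as well. Death and pattern receptors were present for 6 of 11, with a median of 69.9. Tnfrsf12a, the receptor for TWEAK, gave 2076.8 and 1266.1. Tnfrsf1a, the main TNF receptor, gave 207.3 and 157.3, Fas gave 120.8 and 177.5 and Tlr4 gave 66.6 and 73.3, and Ltbr and Ngfr completed the present members. Tlr2, Cd40, Tnfrsf11b, Tnfrsf21 and Ager were absent.

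For developmental pathways 13 of 29 receptors and ligands were present (44.8%), with a median of 20.4. Notch2 gave 753.2 and 1425.2, Tgfbr1 gave 487.4 and 618.0, and the Wnt receptors Fzd2 (577.4 and 249.3) and Fzd1 (217.0 and 396.3) followed. Bmpr1a (148.0 and 201.5), Bmpr2 (144.1 and 150.6), Acvr2a (107.5 and 127.5) and Fzd3 (86.8 and 99.6) were also present. The Notch ligands Jag1, Dll1 and Dll3 and the Hedgehog transducer Smo (1.9 and 1.9) were absent, as were Acvr2b, Acvrl1, Eng, Fzd4 and Fzd5. Tgfbr2, the partner of Tgfbr1, was mixed at 67.6 and 2.1. Nuclear receptors were present for 14 of 27 (51.9%, against 59.3% of all named genes), with a median of 53.5. Rarb, a retinoic acid receptor, gave 467.3 and 330.8, and Nr3c1, the glucocorticoid receptor, gave 267.1 and 434.4. Nr1d2, Nr2f1, Nr1h2, Nr2f6 and Thra, the thyroid hormone receptor alpha, followed, whereas Thrb, Rxrg, Ppara, Pparg, Vdr, Esr1, Esr2 and Pgr were absent.

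Integrins, the receptors for matrix proteins, were present for 12 of 18 (66.7%), with a median signal of 52.8. Itgb1, the common beta subunit, gave 2444.2 and 2625.0. Itgb8 gave 677.7 and 1304.8, and Itga1, a collagen-binding subunit, gave 770.5 and 1227.6. Itga3 (567.0 and 649.5) and Itga6 (297.4 and 345.5), which bind laminin, and Itgav, Itgb5 and Itga7 were present. Itgam, Itgax and Itgb4 were absent, the first 2 of them integrins of white blood cells. Matrix genes were present for 26 of 40 (65.0%), with a median of 169. Spp1, the secreted phosphoprotein osteopontin, gave 4799.1 and 7987.2. Col5a2 (4186.0 and 5475.3), Ccn2 (4640.3 and 4096.1) and Fn1 (3025.5 and 3969.1), which encodes fibronectin, came next. The laminin subunits Lamc1 (2073.1 and 2162.5), Lamb1, Lama4 and Lama2 were present, while Lama1 was absent. Timp2 (2145.3 and 2365.3), an inhibitor of matrix proteases, and Sparc (2461.7 and 1421.4), a matricellular protein, were bright, and Timp1, Timp3, Acan, Ncan, Tnr, Thbs2, Dcn and Lum were absent.

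Of 15 measured cadherins and catenins 6 were present and 9 absent, with a median signal of 14.3. The catenins Ctnnb1 (3625.8 and 5479.2) and Ctnna1 (2691.2 and 3323.5), which link cadherins to actin, were the brightest. Cdh13, a cadherin without a cytoplasmic tail, gave 598.3 and 233.0, Cdh1 gave 57.1 and 67.6 on 1 of 3 probe sets and Cdh15 was dim. Cdh2, the neural cadherin of most glia, was absent on both probe sets (8.5 and 4.8), as were Cdh3, Cdh6, Cdh8, Cdh10, Cdh11, Cdh17 and Cdh22. Immunoglobulin adhesion molecules were present for 12 of 29 (41.4%), with a median of 9.22. Cadm4, a synaptic adhesion protein that Schwann cells use to bind axons, ranked 111 at 4958.7 and 5102.5. Nectin3 (1523.5 and 1609.1), Cadm1 (1312.9 and 1487.1) and Alcam (855.2 and 1406.2) were bright on at least 2 probe sets each. Ncam1, the neural cell adhesion molecule, gave 633.0 and 707.6 with 4 of 7 probe sets present. The axonal and nodal molecules L1cam, Nrcam, Cntn1, Cntn2, Cntnap1 and Ncam2 were absent, and Cntn6 was present at 36.4 and 66.4.

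In the list of junctions and tetraspanins 9 of 21 were present, with a median of 14.2. Cd63, Cd151 (2536.6 and 2333.9), Cd9 (1655.2 and 1639.7) and Cd82, which organise membrane domains, were bright, whereas Cd81 was absent at 3.9 and 5.1. The junction scaffold Tjp1 (1398.0 and 2016.4) was present, and so were Cd44 (1198.9 and 787.0), the hyaluronan receptor, and Epcam (759.4 and 615.8), an adhesion molecule of epithelia. Of the connexins Gja1 alone was present among the 7 measured, and Gja4, Gja5, Gjb1, Gjb2 and Gjb6 were absent. Guidance molecules were present for 15 of 25, with a median signal of 46.5. Nrp2 (1152.5 and 933.0) and Nrp1 (562.6 and 1136.2), the semaphorin co-receptors, led with Plxnb2 (844.7 and 619.8). Sema6a (425.6 and 386.3), Slit2, Unc5b, Plxna3 and Sema3a followed, while Ntn1, Dcc and Unc5a of the netrin system and Slit1, Sema3f, Sema4f and Sema5a were absent.

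The 4 highest shares of P calls among the 36 lists belonged to the tricarboxylic acid cycle, fatty acid synthesis, fatty acid oxidation and cholesterol lists. In the tricarboxylic acid cycle and pyruvate dehydrogenase list 27 of 30 genes were present (90.0%), with a median signal of 909. Mdh1 (2627.7 and 3105.4), Pdha1 (1783.9 and 2358.5), Idh1 (1769.2 and 2499.8), Mdh2, Sdhd, Fh, Sdhc and Sdhb were the brightest. All 4 measured subunits of succinate dehydrogenase were present, and Ogdh was the single absent member. Among 27 genes of glucose transport and glycolysis 19 were present (70.4%, median signal 177), and isozymes of several steps had different calls. Ldha, the muscle-type lactate dehydrogenase subunit, gave 5545.9 and 6087.1, Ldhb gave 560.5 and 752.3, and Ldhc, the testis form, was absent at 12.5 and 2.9. Pkm gave 3716.9 and 3068.3, and the liver form Pklr was absent. Forms known from muscle were present in other steps, with Eno3 at 826.9 and 485.1, Pfkm at 170.8 and 183.4 and Pgam2 at 16.2 and 17.7. Aldoa (3085.1 and 2391.4) and Aldoc, which split fructose bisphosphate, were present. Hk1 (606.1 and 311.4) and Hk2 (217.2 and 163.9), which phosphorylate glucose, were present too. The glucose carrier Slc2a1 was present at 126.4 and 76.4, the liver and muscle carriers Slc2a2 and Slc2a4 were absent, and of the lactate carriers Slc16a1 (667.5 and 678.4) was present and Slc16a3 absent. Pgam1 (4927.6 and 5577.4), Pgk1, Tpi1 and Gpi were also bright.

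The pentose phosphate branch, which makes NADPH, was present in all 6 measured genes, among them Taldo1 (3109.6 and 4130.1), Pgd (934.0 and 622.0), Tkt, Rpia and Pgls. Together with glycogen and gluconeogenesis the list had 10 of 17 present and a median signal of 193. Pygb, the brain glycogen phosphorylase, gave 390.5 and 298.5, and the liver and muscle forms Pygl and Pygm were absent. The mitochondrial Pck2 (462.0 and 306.1) was present and the cytosolic Pck1 absent, as were Fbp1, Fbp2 and Gys2, whereas G6pc1, the glucose-6-phosphatase of liver, was present on 1 of 2 probe sets at 37.8 and 68.2.

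Lipid synthesis, on which myelin depends, was read from a pair of lists. Cholesterol genes were present for 21 of 26 (80.8%), with a median signal of 361. Msmo1 (2743.3 and 3187.2), Hmgcs1 (2185.4 and 2494.3), the entry enzyme, Sqle (2143.7 and 2555.5), Cyp51 (2237.9 and 2135.0), Idi1 and Fdps were the brightest. The bile acid enzymes Cyp7a1 and Cyp27a1 (3.1 and 6.9) were absent. For fatty acid and sphingolipid synthesis 19 of 22 genes were present (86.4%), with a median of 231. Scd2, the brain stearoyl-CoA desaturase, ranked 94 at 4839.1 and 5773.1, and Scd gave 109.5 and 126.5. Fads1, Degs1, Acly, Fasn (912.5 and 896.2), Sptlc1, Cers5 and Cers2 were present, and Acacb (1.3 and 1.5) was absent while Acaca gave 463.4 and 366.8. Fatty acid oxidation was present for 16 of 19, with a median of 207. Hadhb (2890.0 and 3395.3), Acadl (1010.9 and 1172.0), Hadha and Cpt1a (438.5 and 707.7) led, and Cpt1c, Cpt2 (99.6 and 71.4) and Ehhadh were called absent.

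In amino acid metabolism 21 of 34 genes were present (61.8%), close to the share of all named genes, with a median signal of 95.4 and a split between pathways. The serine pathway was bright: Psat1 ranked 72 at 5120.9 and 6599.2, Psph gave 943.5 and 862.4, Shmt2 gave 1310.7 and 674.4 and Phgdh gave 1927.4 and 726.9. Odc1 (2315.6 and 2040.9), which starts polyamine synthesis, Glud1 (1464.4 and 1293.2), Got2 and Aldh18a1 were bright too. Glycine cleavage and the urea cycle held the absent Gldc, Cps1, Otc, Ass1 and Arg1, while Asl (110.5 and 67.0) and Arg2 (32.1 and 26.4) were present, and Cbs, Gpt and Prodh were absent too. Among 29 solute carriers and creatine genes 15 were present, with a median of 27.6. Gatm (1724.0 and 1428.2), the first enzyme of creatine synthesis, Slc3a2 (1500.9 and 768.2), the heavy chain of amino acid exchangers, and Slc12a2 (1161.3 and 1735.7), a chloride importer, were the brightest. The glutamate carrier Slc1a1 gave 426.6 and 454.3 and Slc1a2 was absent at 6.4 and 1.8. The transmitter carriers Slc6a3 and Slc6a4 and the amino acid carriers Slc7a2, Slc7a8, Slc7a10 and Slc38a1 were absent.

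Ion channels and pumps were present for 14 of 42 (33.3%, median signal 15.6), and the division ran between housekeeping pumps and gated channels. Atp2a2 (2384.9 and 3048.7), the calcium pump of the endoplasmic reticulum, Atp1b3 (1888.9 and 2269.3) and Atp2b1 (1862.8 and 1965.7) were bright. The mechanically gated channel Piezo1 (858.2 and 438.2) and Trpm7 (367.4 and 652.1) were present. Kcnn4, a calcium-activated potassium channel, gave 318.9 and 137.7, and the sodium channel subunit Scn1a gave 148.8 and 421.0. Kcnj10, the inward rectifier of glia, was absent at 11.6 and 7.3, as were Kcna3, Kcna4, Kcna5, Kcna6, Kcnj3 and Kcnj4, and Kcna1 and Kcna2 were mixed.

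Over all 36 lists 742 different genes were measured, of which 369 were present, 307 absent and 66 mixed. Of the present ones 347 were P on all 6 mock arrays by at least 1 probe set. Among the 4567 genes with several probe sets 1365 had 1 present on both arrays and another absent on both, so a gene called present here can have silent probe sets.

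The 2 mock 8 h arrays, made from the same condition in different experiments, differed by more than 2-fold in 1320 of the present probe sets (8.72%), 696 higher in experiment 1 and 624 higher in experiment 2. The largest named excess of experiment 2 was in Cyp1b1, a cytochrome P450 under the aryl hydrocarbon receptor, at 482.4 and 1600.8. Rev3l (101.8 and 302.8), a translesion DNA polymerase, and Snx14, Rbm39, Scn1a, Herc2, RGD1561724 and RGD1564965 followed. The largest excess of experiment 1 was in Ptms, the small acidic protein parathymosin, at 400.1 and 79.1, and Ppp2r1a (465.1 and 98.8), Pmepa1 (1517.4 and 338.7), Rab11b, Hpcal1, Get3, Ngfr and Mapk3 followed. The direction was kept at later times. Of the 1320 probe sets 1190 (90.2%) had the same sign in both later pairs of mock arrays, compared with 63.6% of the other 13822 present probe sets. Across present probe sets each 12 or 16 h mock array correlated at 0.979 to 0.983 with the 8 h array of its own experiment, against 0.952 between the 2 mock 8 h arrays. The ratio of 3′ to 5′ signal of the actin control was 2.14 in experiment 1 and 4.65 in experiment 2 at 8 h, and that of GAPDH was 1.09 and 0.925. The part of this ratio in the differences was not tested. Of 367 listed genes whose brightest probe set was present, 35 (9.54%) differed by more than 2-fold, among them Ngfr, Phgdh, Cdh13 and Gfap (higher in experiment 1) and Scn1a, Mag, Gja1 and Nrp1 (higher in experiment 2). For these genes the 2 arrays gave different levels, and the range of both arrays does not bound the level in the cells.

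Whether the mock cells at 8 h differed from the later mock cells was the 1 comparison tested, with limma over all 12 arrays and 19248 probe sets. No probe set was called higher (0.0%) or lower (0.0%) at 12 and 16 h at an adjusted p threshold of 0.05, with 326 at an unadjusted p under 0.05. With the experiment as a replicate block the count was also 0 (0.0% in each direction), with 1300 at an unadjusted p under 0.05. The smallest p among probe sets with higher signal later belonged to Tm7sf2, a sterol reductase of cholesterol synthesis, with 152.6 and 205.7 at 8 h, 344.1 and 333.2 at 12 h and 665.6 and 718.0 at 16 h. The arrays of 8 h lay below all later ones, and the later mean was 1.45 ± 0.19 (SE) higher on the log2 scale, which did not pass (limma adjusted p = 0.669, and 0.185 with the block). Nsdhl, another enzyme of that pathway, gave 747.8 and 750.9 at 8 h and 1201.7 to 2305.6 later, a difference of 1.14 ± 0.19 (limma adjusted p = 1.0 without the block and 0.127 with it). Acat2, which makes acetoacetyl-CoA, differed by 1.01 ± 0.18, and Ebf2 and Fam162a were dim at 8 h. The smallest p in the other direction belonged to Ppm1k (17.2 and 22.2 at 8 h, 0.8 to 15.6 later), followed by 1 probe set of Id4 (151.6 and 138.0 at 8 h, 68.3 to 82.0 later), and by Ttn, Xiap and Cirbp. Without the block the differences for the markers other than Mbp did not exceed their errors. On the log2 scale they were -0.29 ± 0.31 for Olig1, -0.13 ± 0.19 for Nkx2-2, 0.21 ± 0.22 for Bcas1 and -0.0041 ± 0.49 for Sox10. These errors include the difference between the experiments, and the marker errors with the block are not given here. A difference that misses the threshold does not show that the levels were equal.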

How the data were processed

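Each sample is 1 array, hybridised with biotin-labelled cRNA, per the labels' protocols. The deposited intensity values are linear signals from MAS5, a program named by the submitters' processing notes without a version. Their 2% trimmed mean was 150.01 on each array, so the authors had scaled the arrays to a common level. Detection calls (P, M, A) come from the same deposited table. The other deposited table has these signals as whole numbers, differs by at most 0.5 and was not needed.

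The table has 31096 probe sets, of which 57 controls were left out, and 3 of its lines are not analysed here. Signals were floored at 0.1 (46 values of the mock 8 h arrays lay at the floor) before log2. Symbols come from the deposited annotation, updated through a RefSeq gene table of GRCr8: 20102 probe sets had 1 symbol, 347 several and 10590 none, and for 1315 the older symbol was left as it stood. The files name no genome build, so coordinates are given for RefSeq promoters (GRCr8) alone.

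The members, the 36 lists (884 places, 837 different genes) and the named genes were chosen with earlier results of these data known. Named are the markers and Tppp, the 15 brightest genes other than ribosomal ones, for each list up to 8 brightest present and up to 8 absent members, and the 8 genes each way with the largest difference between the arrays. Some genes that this rule names are not reported here. For the test the 5 smallest p each way are named as not passing. Families in the closing section were defined by symbol after their values were seen.

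The test was limma 3.58.1 (R 4.3.3) on log2 signals with 6 group means, 6 residual degrees of freedom and Benjamini-Hochberg adjustment over 19248 probe sets present on at least 2 of 12 arrays. Tables were handled with Python 3.11.15, pandas 2.3.3 and numpy 2.4.6. In all 15 pairs of groups, arrays with the same experiment number deviated together (correlation 0.47 to 0.57), and the first component (42.0% of the variance) separated the experiments, so the experiment numbers of the titles were taken to pair the arrays. Tested on simulated data for this contrast, with 19248 probe sets and 50 changed at each size, the fit without the block called 2 at a log2 change of 1 and 21 at 2, and the fit with it called 24 and 35. The number of arrays limits the precision.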

Additional observations from a re-analysis of the deposited data

How the results depend on the processing

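The number of probe sets present on both arrays stayed within 1.5 times of the reported one when marginal calls were counted as present (15516), on all 6 mock arrays (13880), with a limit on signal in place of calls (15238, at 19 and 26.9 signal units) and without either array (16048 to 17112). The number absent stayed within 10624 to 14564. Counted as genes the numbers are 7722 present and 4154 absent. Of the 300 brightest probe sets 282 to 300 were shared with every other ranking tried. The listed genes present numbered 261 to 406 against 369, the lowest when all probe sets of a gene had to be present, which moved 16 of 36 lists by more than 1.5 times. Without mock 8 h of experiment 2, 2 lists moved that far, transmitter receptors other than ionotropic (7 present) and other tissues (3). On all 6 mock arrays 3 did, these same lists (2 and 0) and ionotropic glutamate receptors (1). With an offset of 50 before log2 the probe sets differing over 2-fold between the arrays fell to 304, since the offset shrinks the ratios of dim ones. The comparison of later with 8 h mock cells gave 0 calls with the replicate block, under quantile normalization, median centring, other filters, the offset, eBayes with trend and robust, and the 6 mock arrays alone. The experiment as a random block gave 1 (Ppm1k, lower later). Leaving out single arrays gave 0 to 1 calls with or without the block, the 1 being Amh, higher later, without mock 8 h of experiment 1, where that array's own signal was 17.2 and the other 0.7. In such fits the remaining array of the group borrows its spread from the other groups. The cause was not tested. The replicate block combined with other choices was added after seeing the data. Dim signals limit all statements on absent genes.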

Other observations

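Genes were also grouped into families by their symbols, and some members of these families are in the lists above. The families were defined after their values were seen, so they describe the arrays and add no support to the lists. On the mock 8 h arrays families of shared machinery were mostly present. Of 73 cytosolic ribosomal protein genes 72 were present, as were all 61 mitochondrial ribosomal protein genes, all 35 proteasome subunits, all 30 measured subunits of respiratory complex I and all 19 hnRNP genes, which process messenger RNA. Annexins, which bind membranes in the presence of calcium, were present for 8 of 9, with Anxa1 at 4855.7 and 5949.7 and Anxa5 at 2346.4 and 1890.0. Of 14 S100 genes 7 were present, among them S100a11 at 5144.9 and 5449.8. At the other end none of 22 measured fibroblast growth factors was present on both arrays (16 absent, 6 mixed), none of 5 PAX factors, 7 of 74 potassium channel genes, 1 of 18 GABA-A receptor subunits, 2 of 20 keratins and 1 of 20 olfactory receptors. Other families lay between these ends, with 38 of 55 RAB GTPases, 11 of 26 ADAM and ADAMTS proteases and 11 of 27 forkhead factors present. These shares stand beside the 59.3% of all named genes.

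Families of developmental transcription factors were present for 3 of 15 LIM and POU homeobox genes (11 absent) and 4 of 11 SOX genes (4 absent). Their present members included bright ones. Lhx2, a LIM homeobox factor of the forebrain and eye, gave 619.4 and 853.1. Sox4, a factor of immature cells, gave 906.7 and 1388.2. Of 22 measured Hox genes, which pattern the hindbrain, spinal cord and trunk, 9 were present, and the brightest, Hoxa11, gave 146.2 and 262.7. Secreted factors with P calls included Igfbp7 (2028.7 and 1860.9) and Igfbp5 (730.2 and 534.9), which bind insulin-like growth factors, and the chemokines Ccl2 (881.2 and 362.9), Cxcl10 (156.6 and 128.5) and Cxcl1 (94.6 and 61.9), while 18 of 25 chemokine genes were absent. Lhx2, Sox4, Hoxa11, Igfbp7 and Ccl2 were P on all 4 later mock arrays.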
